A study of Mus musculus with 12 samples.

Results

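Ribosome biogenesis factors are the proteins that transcribe, cut, chemically modify and fold ribosomal RNA and join it to ribosomal proteins. The 42 genes described here were taken by name from the deposited count table of 54532 mouse genes. All 42 had counts in each of the 12 libraries, between 71 and 83290 per gene and library, and all 42 passed the filter on low counts. The libraries were made from poly-A RNA of primary B lymphocytes, which were sorted from 3 wild type and 3 Tmem173-/- mice and cultured in plates. Tmem173 encodes STING, a receptor for cyclic dinucleotides at the endoplasmic reticulum. Cells were untreated (control) or exposed for 12 hours to 3'3'-cGAMP, a cyclic dinucleotide of bacterial origin that binds STING. Each genotype thus had 3 control and 3 cGAMP libraries, which makes 4 groups. The strain, age and sex of the mice, the kind of Tmem173 allele, the tissue of origin and the cGAMP concentration are not given in the sources used here. The labels do not say which control and cGAMP libraries came from the same mouse, so p-values measure the spread between these libraries.

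Ribosomal RNA is transcribed in the nucleolus by RNA polymerase I as a long precursor. Small nucleolar RNAs guide its modification inside protein particles, the box C/D type adding methyl groups and the box H/ACA type converting uridine to pseudouridine. Large assemblies then cut the precursor and fold it into the small and the large ribosomal subunit, which mature on the way to the cytoplasm. Resting lymphocytes make few ribosomes, and activation by antigen or mitogens is known to raise ribosome production, for which MYC is a well-described transcriptional activator. MYC with its partner MAX binds the E-box sequence CACGTG.

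That motif gives the sequences most relevant to these genes. A promoter window of 250 bases before to 50 bases after the start of the gene was held by RefSeq (GRCm38.p6) for 37 of the 42 genes. The letters CACGTG, which read the same on both strands, occurred in the windows of 8 of these 37 genes (21.6%), against 2187 of 27025 genes overall (8.09%). The 27025 were all genes with a window, also those not expressed in these cells. The 2 shares are therefore of unlike sets, and a difference between them was not tested. The 8 genes were Imp4, Nop2, Grwd1, Ltv1, Utp20, Pes1, Tsr1 and Wdr43. Parts of 3 windows are printed, 5′ to 3′ on the plus strand, with the motif in capitals. Nop2 (chr6:125131633-125131882) was the 1 gene seen to hold the motif among the 6 with the largest wild type changes over all libraries, of which Rrp12 had no window. With wild type control replicate 2 left out, a library in which Nop2 was low, Nop2 was in place 8 by size of change and none of the first 6 held the motif. Wdr43 (chr17:71616115-71616244) and Pes1 (chr11:3963875-3964004) were chosen after their values were seen, as a gene that rose and a gene with a change near 0 that both carry the motif just after the start.
Nop2: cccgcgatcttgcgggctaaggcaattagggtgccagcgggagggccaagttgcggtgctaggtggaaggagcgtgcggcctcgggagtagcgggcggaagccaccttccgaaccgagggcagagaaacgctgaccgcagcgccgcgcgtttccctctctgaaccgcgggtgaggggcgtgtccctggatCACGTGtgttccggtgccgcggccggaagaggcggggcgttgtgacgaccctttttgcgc
Wdr43: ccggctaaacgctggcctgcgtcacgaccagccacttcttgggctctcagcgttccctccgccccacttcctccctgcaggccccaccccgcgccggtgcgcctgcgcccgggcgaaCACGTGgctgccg
Pes1: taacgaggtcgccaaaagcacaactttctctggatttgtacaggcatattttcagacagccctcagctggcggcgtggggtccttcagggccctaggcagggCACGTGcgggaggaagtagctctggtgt

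The motif began 60 bases before the start in Nop2, and at base 18 in Wdr43 and base 3 in Pes1, with the start counted as base 1. These matches are letters in a window and were not tested for binding.

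Library totals ran from 26490593 to 31417833 counts, and 18556 to 19727 genes were detected per library. Transcripts of Tmem173 itself were at 91.2, 102 and 92.7 CPM (normalised read counts, scaled to the library total) in untreated wild type cells and at 80.2, 94.7 and 103 CPM in Tmem173-/- controls (log2 difference -0.04, adjusted p = 0.94). The genotype therefore rests on the labels, and the RNA level of untreated cells does not check it. After cGAMP Tmem173 was at 44.7, 49.2 and 48.0 CPM in wild type (log2 change -1.01, edgeR, adjusted p = 8.07e-07). In Tmem173-/- cells it was then at 82.9, 101 and 95.9 CPM (0.01), and the difference of the responses was -1.02 (adjusted p = 6.43e-05). The B cell markers Ms4a1, Cd79a, Cd79b, Pax5, Ebf1, Cd22 and Ighm were present in every library, Cd79a for example with 17104 to 46114 counts. The wild type cGAMP libraries had the lowest Cd79a counts (17104, 21090 and 18981). Summed B cell markers were at 7905 to 9079 CPM in wild type controls and at 6004 to 6710 CPM after cGAMP. In Tmem173-/- libraries this sum was 7978 to 9245 CPM. By the edgeR test used below, 6 listed B cell markers were called lower after cGAMP in wild type and 2 higher. Of all tested genes 25.4% were called lower and 22.4% higher there. Markers of other cell types were low. The T cell sum reached 16.2 CPM and the neutrophil sum 24.4 CPM in wild type cGAMP replicate 1, with 7.0 and 9.2 CPM in wild type control replicate 1, and neither sum exceeded 1.8 CPM in the other 10 libraries. The sum of monocyte and macrophage markers was 34.1 to 46.7 CPM in wild type controls and 10.7 to 19.0 CPM after cGAMP, and that of dendritic cell markers 15.1 to 19.9 and 37.3 to 45.9 CPM. In Tmem173-/- libraries these sums were 45.5 to 59.9 and 17.7 to 24.4 CPM. The fall in wild type was that of Adgre1 (648, 1080 and 889 counts to 117, 153 and 104). It was the 1 gene called of 4 tested in its list. Lyz2 went the other way (177, 79 and 17 counts to 216, 219 and 55), with overlap, and Cd68 changed little. Of 4 tested dendritic cell markers, Flt3 and Zbtb46 were called higher and the other 2 did not pass.

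One library stood apart. Among 9900 genes with a median count above 100, wild type control replicate 2 held 21 that lay more than 1 log2 CPM below all 11 other libraries, and the other libraries held 0 to 2 such genes each. All 8 of the genes whose symbol starts with Rrp were among the 21, including Rrp9, Rrp12 and Rrp1b of the 42. In that library Rrp12 had 71 counts against 2382 to 5077 elsewhere, Rrp1b had 173 against 1658 to 4619, and Rrp9 had 306 against 1890 to 5393. Nop2 was also at its lowest there, at 67.4 CPM against 113 to 282 CPM. The library was lower over the rest of the 42 genes too. Without the 3 Rrp genes, their mean log2 CPM was 6.93 there, against 7.25 and 7.27 in wild type control replicates 1 and 3. It was 7.18, 6.91 and 6.96 in the Tmem173-/- controls. The Rrp genes outside the 42 are on the list of further pathway genes described below, as are Exosc5, Dis3 and Emg1, also among the 21. Other genes among the 21 included Hsp90aa1, Rpl12, mt-Rnr1 and mt-Rnr2, and the cause was not tested. Values without this library are given beside the results that it changes.

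**Figure D1:**
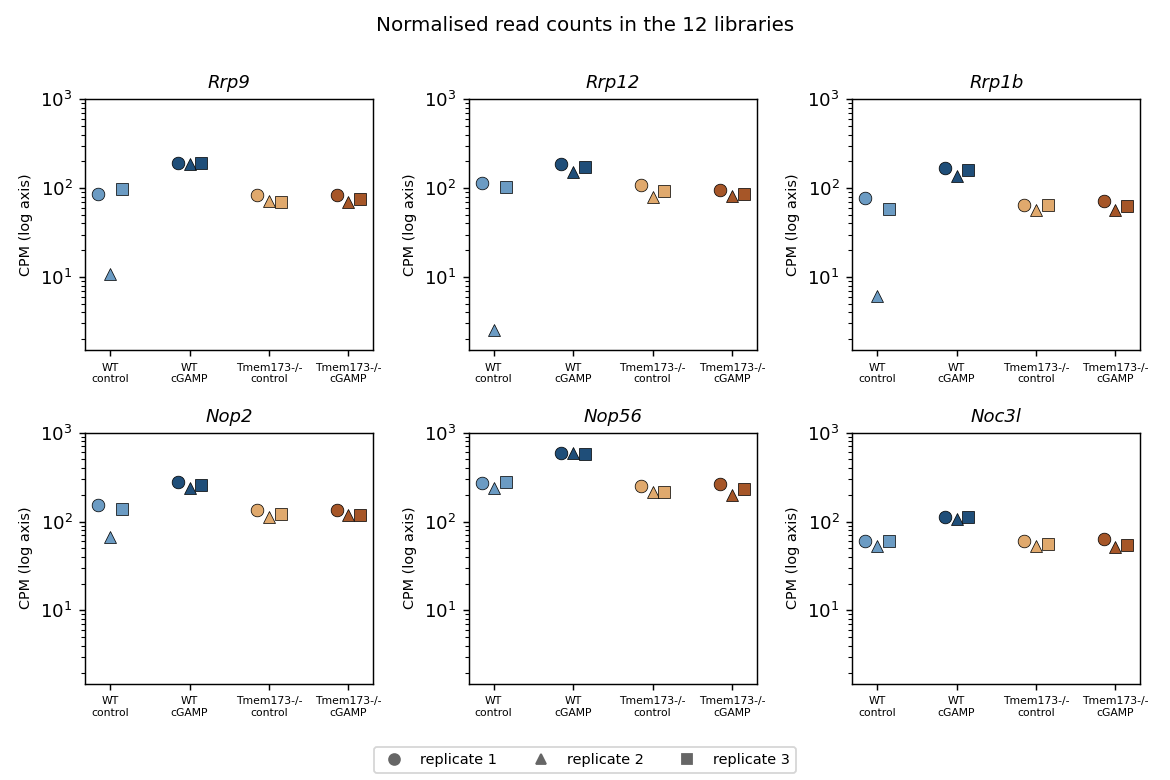
Normalised read counts (CPM, log axis) of Rrp9, Rrp12, Rrp1b, Nop2, Nop56 and Noc3l in the 12 libraries by group, with 1 symbol per replicate number. Wild type control replicate 2 lies at 10.8, 2.5 and 6.09 CPM for the 3 Rrp genes, far below every other library. Its Nop56 and Noc3l values are the lowest of the wild type controls and lie within the range of the Tmem173-/- controls.

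Exposure of wild type B cells to cGAMP raised most of these genes. In edgeR's quasi-likelihood test, with Benjamini-Hochberg adjustment over all 14473 tested genes, 35 of 42 were higher in wild type cGAMP than in wild type control and 0 were lower. Of all tested genes 22.4% were called higher and 25.4% lower. The median log2 fold change of the 42 genes was 0.71, and that of all tested genes was near 0 (-0.0036). Of the 35, 4 rose at least 2-fold, namely Nop56, Nolc1, Gnl3 and Nop2. The 7 genes that did not pass the threshold were Fbl, Nop10, Imp3, Pes1, Rrp9, Rrp12 and Rrp1b. Without wild type control replicate 2, 37 of 42 were higher and 0 lower, the median was 0.59, and 20.1% of all genes were called higher. Nolc1 (0.98) and Nop2 (0.83) were then below 2-fold, and Rrp9 (1.05) and Rrp1b (1.19) passed at 2-fold or more, as did Nop56 and Gnl3. Without both wild type libraries numbered 1, which held the T cell and neutrophil markers, 32 were higher and 0 lower, with 16.8% of all genes called higher. In bulk samples, more cells with a transcript and more of it per cell cannot be told apart. Summed markers of dividing cells (Mki67, Top2a, Ccnb1, Cdk1, Mcm2 and Pcna) also moved, from 317 to 395 CPM in wild type controls to 572 to 671 CPM under cGAMP, against 307 to 369 CPM in the Tmem173-/- libraries. Pcna and Mcm2 held most of these counts. Mki67 had 394, 112 and 154 counts in wild type controls and 644, 357 and 547 after cGAMP, with overlap. Of these 6 genes, 4 were called higher in wild type and 2 did not pass. The part of dividing cells and of the other marker lists in the result was not tested.

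**Figure D2:**
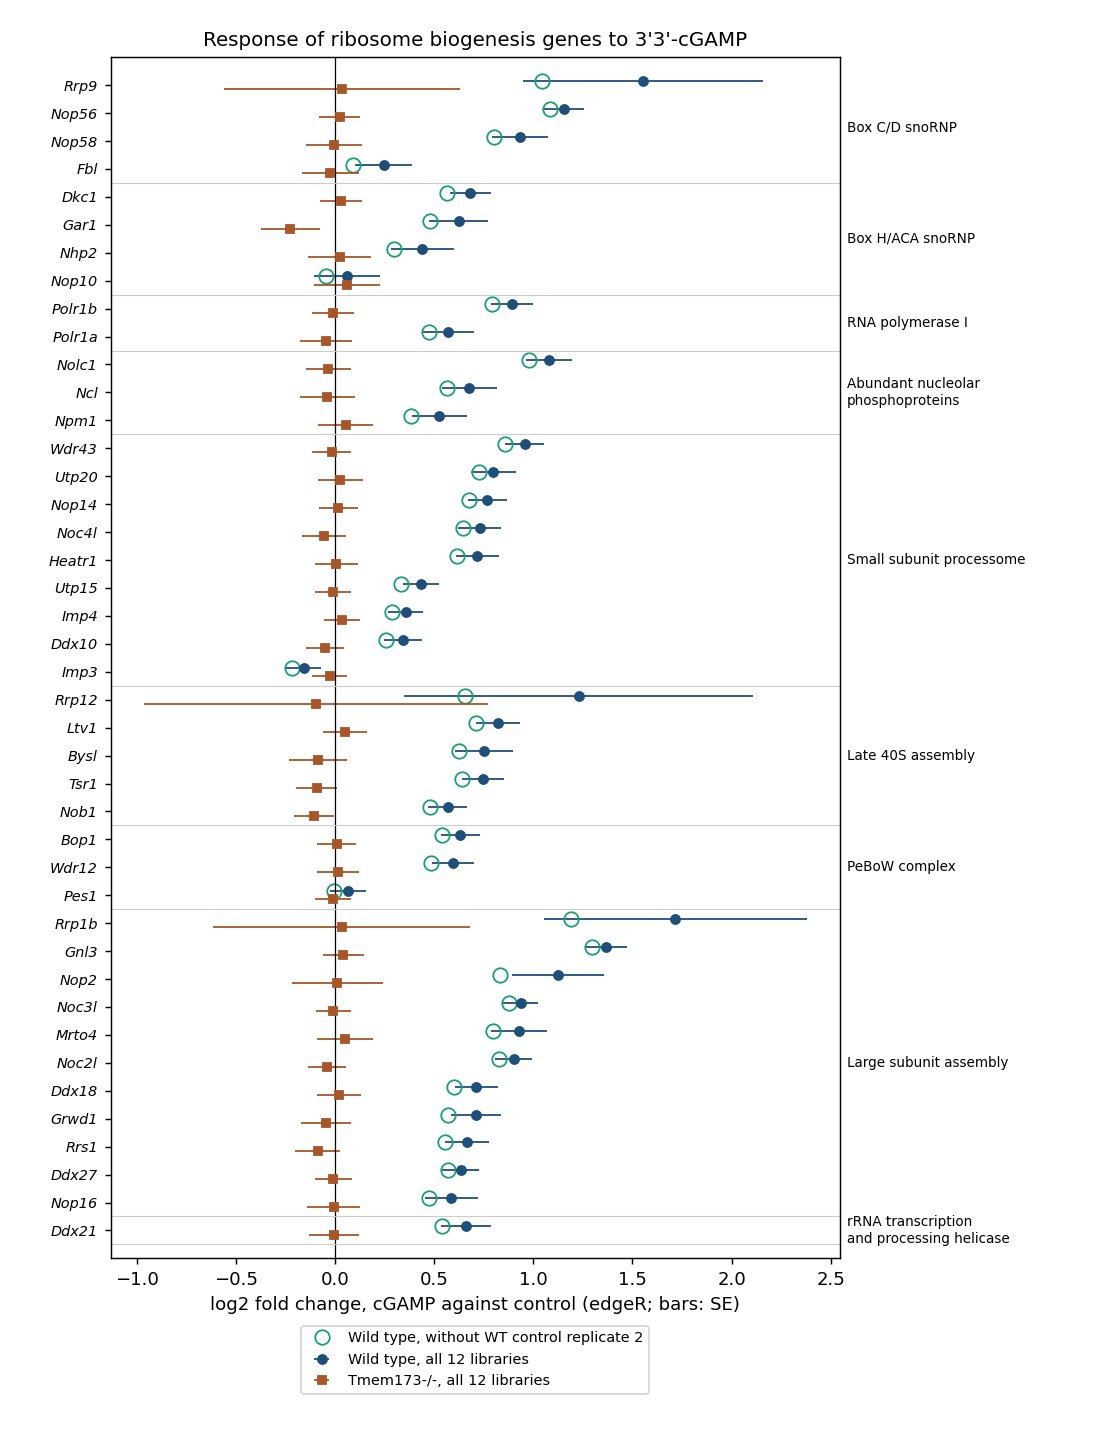
Log2 fold change of each of the 42 genes after cGAMP, fitted in wild type (dots), in wild type without control replicate 2 (open circles) and in Tmem173-/- (squares). Bars are 1 SE. The dots lie right of 0 for 41 of the 42 genes, and Tmem173-/- values lie between -0.22 and 0.06. The open circles of Imp3 (-0.22), Nop10 (-0.05) and Pes1 (-0.006) lie left of 0.

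The box C/D particle has 3 core proteins among the 42, the scaffold pair Nop56 and Nop58 and the methyltransferase fibrillarin (Fbl), and Rrp9 belongs to the particle on the U3 RNA. Nop56 was at 273, 241 and 280 CPM in untreated wild type cells and at 589, 595 and 582 CPM after cGAMP, a log2 change of 1.15 (SE 0.11, adjusted p = 2.90e-07). The groups lay far apart, and the 6 Tmem173-/- libraries, at 198 to 262 CPM, were close to the wild type controls. Nop58 rose by 0.93 (SE 0.14). Fbl was at 393, 284 and 413 CPM in controls and at 457, 410 and 426 CPM after cGAMP, so its groups overlapped. The log2 change of Fbl was 0.25 (95% interval -0.06 to 0.55, adjusted p = 0.17), and 0.09 without wild type control replicate 2. Rrp9, which binds the U3 RNA, was at 86.7, 10.8 and 96.6 CPM in controls and at 194, 186 and 190 CPM after cGAMP. With the low library its log2 change of 1.55 did not pass the threshold (SE 0.61, adjusted p = 0.065). Without that library the change was 1.05 (SE 0.11, adjusted p = 1.16e-06).

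Among the box H/ACA proteins, the pseudouridine synthase dyskerin (Dkc1) was at 208, 166 and 221 CPM in untreated wild type cells and at 321, 303 and 331 CPM after cGAMP, without overlap (log2 change 0.68, SE 0.10, adjusted p = 5.92e-05). Gar1, which helps release the modified substrate, was at 90.2, 66.7 and 94.3 CPM in controls and at 138, 120 and 129 CPM after cGAMP (0.62, SE 0.15, adjusted p = 0.0030). Nhp2, an RNA-binding core protein, rose by 0.44 (adjusted p = 0.034). That call was lost without wild type control replicate 2 (0.30, adjusted p = 0.14), and also without wild type control replicate 1 or without any 1 of the 3 wild type cGAMP libraries. Nop10, the smallest core protein, was at 106, 98.5 and 142 CPM in controls and at 117, 127 and 119 CPM after cGAMP. Its groups overlapped (0.06, 95% interval -0.29 to 0.42, adjusted p = 0.78).

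RNA polymerase I was represented by its 2 large catalytic subunits, and both rose. Polr1b was at 118, 87.8 and 97.6 CPM in untreated wild type cells and at 202, 175 and 186 CPM after cGAMP (log2 change 0.89, SE 0.11, adjusted p = 5.35e-06). Polr1a was at 173, 126 and 136 CPM in controls and at 239, 183 and 225 CPM after cGAMP (0.57, SE 0.13, adjusted p = 0.0023). The lowest Polr1a value after cGAMP lay only just above the highest control value.

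The 3 abundant nucleolar phosphoproteins all rose. Nolc1, a chaperone of small nucleolar particles that also binds RNA polymerase I, was at 218, 166 and 194 CPM in untreated wild type cells and at 445, 349 and 426 CPM after cGAMP (log2 change 1.08, SE 0.12, adjusted p = 1.61e-06). Nucleolin (Ncl), which binds nascent ribosomal RNA, was at 1883, 1459 and 1850 CPM in controls and at 3026, 2313 and 2966 CPM after cGAMP (0.68, SE 0.14, adjusted p = 8.42e-04). Nucleophosmin (Npm1), which shapes the outer zone of the nucleolus, was at 1635, 1308 and 1933 CPM in controls and at 2319, 2301 and 2398 CPM after cGAMP (0.53, SE 0.14, adjusted p = 0.0054). None of the 3 had overlapping groups. Per transcript length, Npm1 and Ncl were also the 2 highest of the 42 genes in wild type controls, at 1516 ± 220 and 715 ± 85.5 FPKM (SD, n = 3), and Fbl followed at 366 ± 59.3 FPKM. The lowest were Noc3l at 14.1 ± 0.8 and Bysl at 15.5 ± 2.2 FPKM, whose SDs overlap.

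The small subunit processome is the large particle that forms on the growing precursor and cuts out the small subunit RNA, and 8 of its 9 listed genes rose. Wdr43, a subunit of the early particle, was at 191, 163 and 210 CPM in untreated wild type cells and at 365, 356 and 371 CPM after cGAMP (log2 change 0.96, SE 0.10, adjusted p = 1.11e-06). Utp20, a very large scaffold protein, was at 189, 145 and 145 CPM in controls and at 304, 239 and 290 CPM after cGAMP (0.80, SE 0.11, adjusted p = 3.05e-05). The scaffold proteins Nop14 (0.77), Noc4l (0.73) and Heatr1 (0.72) changed by similar amounts. Utp15 (0.43), Imp4 (0.36) and the helicase Ddx10 (0.34) changed by less. Imp3, which helps join the U3 RNA to the precursor, was the single gene of the 42 with a fitted decrease. It was at 68.7, 65.7 and 79.2 CPM in controls and at 66.1, 63.8 and 61.6 CPM after cGAMP, with overlap (-0.16, 95% interval -0.35 to 0.03, adjusted p = 0.15).

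Late steps of small subunit assembly were represented by 5 genes, of which 4 rose. Ltv1, an assembly factor that leaves the particle in the cytoplasm, was at 71.2, 62.1 and 84.9 CPM in untreated wild type cells and at 129, 127 and 129 CPM after cGAMP (log2 change 0.82, SE 0.11, adjusted p = 1.74e-05). Bysl (0.75) and Tsr1 (0.75), which bind the precursor particle, rose by nearly as much. Nob1, the nuclease that makes the last cut in the small subunit RNA, had the smallest change of the 5, with 71.9, 58.8 and 68.7 CPM in controls and 101, 98.9 and 95.3 CPM after cGAMP (0.57, SE 0.10, adjusted p = 2.07e-04). Rrp12, an export factor, was at 113, 2.5 and 102 CPM in controls and at 185, 151 and 175 CPM after cGAMP. All of its cGAMP libraries lay above all controls, but the low library left a change of 1.23 with an SE of 0.88 (adjusted p = 0.29). Without that library the change was 0.65 (SE 0.12, adjusted p = 4.75e-04).

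The PeBoW complex acts on the large subunit precursor and consists of Pes1, Bop1 and Wdr12. Bop1 was at 130, 107 and 130 CPM in untreated wild type cells and at 203, 182 and 183 CPM after cGAMP (log2 change 0.63, SE 0.10, adjusted p = 7.34e-05). Wdr12 was at 75.6, 63.4 and 84.7 CPM in controls and at 109, 115 and 114 CPM after cGAMP (0.59, SE 0.11, adjusted p = 2.48e-04). Both rose without overlap. Pes1 was at 240, 220 and 266 CPM in controls and at 254, 235 and 268 CPM after cGAMP, with overlap (0.06, 95% interval -0.13 to 0.26, adjusted p = 0.59). Pes1 thus showed a change near 0 in the same libraries in which its 2 partners rose, and its promoter window, printed above, holds the motif from base 3.

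Large subunit assembly had the most genes, and 10 of 11 rose. Gnl3 (nucleostemin), a GTP-binding nucleolar protein named for its presence in proliferating stem cells, was at 141, 116 and 125 CPM in untreated wild type cells and at 324, 344 and 319 CPM after cGAMP. Its log2 change of 1.37 (SE 0.11, adjusted p = 5.53e-08) was the largest that passed the threshold among the 42 genes. Nop2, a methyltransferase of the large subunit RNA, was at 154, 67.4 and 138 CPM in controls and at 282, 242 and 260 CPM after cGAMP. Its change was 1.13 (SE 0.23, adjusted p = 0.0019), and 0.83 (SE 0.10) without wild type control replicate 2, which puts it below 2-fold. Rrp1b was at 76.7, 6.09 and 58.6 CPM in controls and at 168, 135 and 161 CPM after cGAMP. Its change of 1.72 did not pass with the low library (SE 0.66, adjusted p = 0.062) and was 1.19 without it (SE 0.13, adjusted p = 2.98e-06).

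The remaining large subunit genes rose by 0.59 to 0.94. Noc3l (0.94) and Noc2l (0.90), which bind the precursor particle as partners, and Mrto4 (0.93), which holds the place of a ribosomal stalk protein, were at the upper end. The helicases Ddx18 (0.71) and Ddx27 (0.63), the histone-binding Grwd1 (0.71) and Rrs1 (0.67), which helps load the small ribosomal RNA of the large subunit, lay between. Nop16 had the smallest change of the 11, with 97.7, 84.3 and 116 CPM in controls and 148, 153 and 146 CPM after cGAMP (0.59, SE 0.13, adjusted p = 0.0019). Ddx21, a helicase that acts in both transcription and processing of ribosomal RNA, was at 573, 420 and 513 CPM in controls and at 858, 691 and 831 CPM after cGAMP (0.66, SE 0.13, adjusted p = 4.16e-04). Neither Nop16 nor Ddx21 had overlapping groups. In all, the 3 cGAMP libraries lay above the 3 controls for 38 of the 42 genes, against 26% of all tested genes, with Fbl, Nop10, Imp3 and Pes1 as the exceptions.

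**Figure D3:**
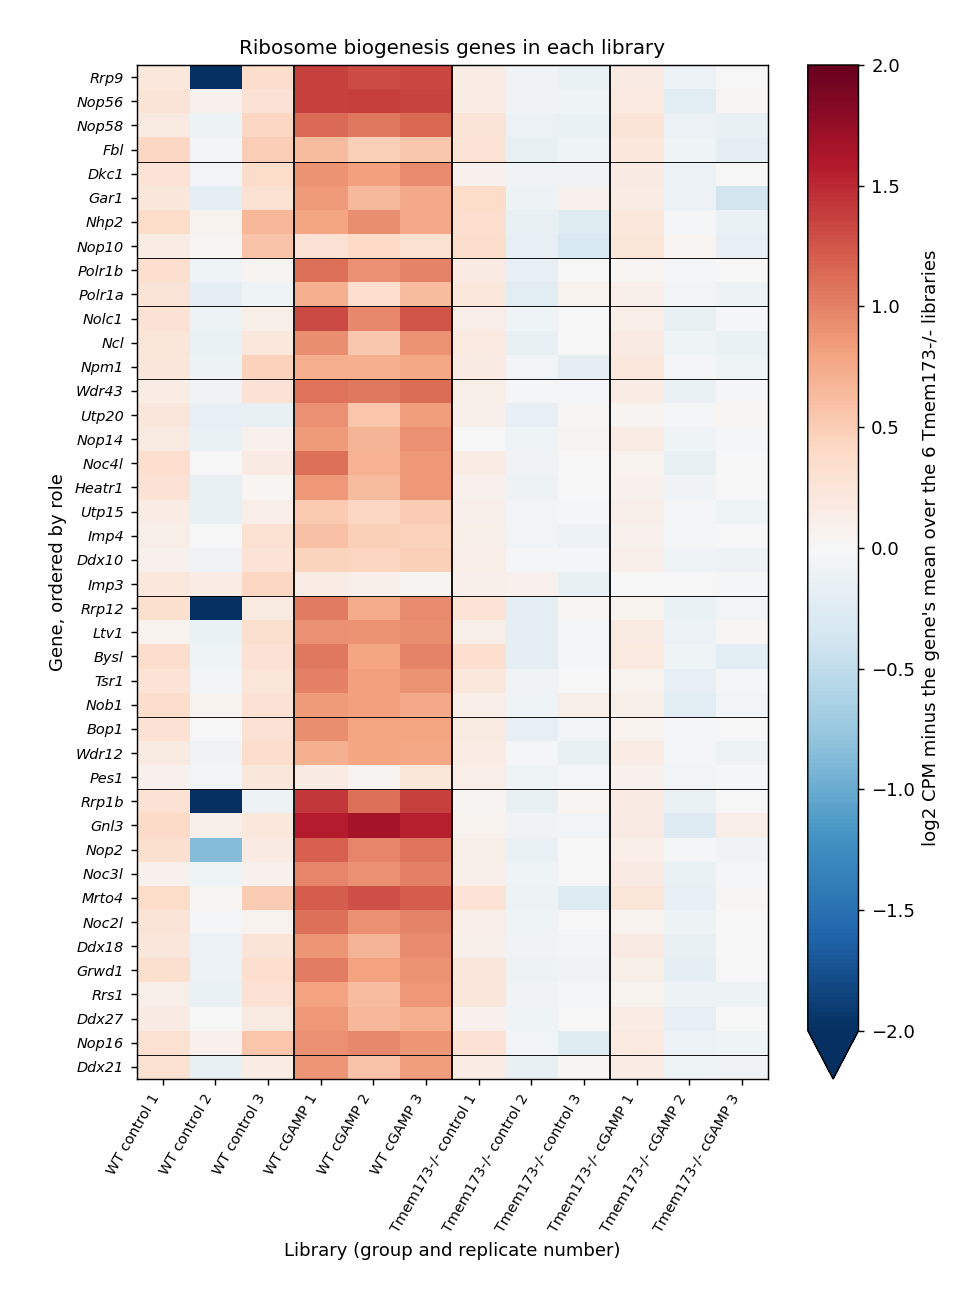
Log2 CPM of the 42 genes in each of the 12 libraries, minus the gene's mean over the 6 Tmem173-/- libraries, with genes ordered by role and values under -2 drawn in the darkest blue. The 3 wild type cGAMP columns are red for nearly all genes, the Tmem173-/- columns are pale, and the dark cells in wild type control replicate 2 are Rrp9, Rrp12 and Rrp1b.

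The smaller changes of Fbl, Nop10, Pes1 and Imp3 meant that transcript ratios inside known complexes shifted. The comparison used 8 ratios of FPKM values, chosen after the changes were seen. Nop56 over Fbl was 0.62, 0.76 and 0.61 in untreated wild type cells and 1.15, 1.30 and 1.22 after cGAMP, a mean log2 shift of 0.89. Bop1 over Pes1 was 0.86, 0.78 and 0.78 in controls and 1.27, 1.23 and 1.09 after cGAMP (0.57), so the more abundant of the 2 transcripts per length changed. Imp4 over Imp3 was 1.04, 1.00 and 1.02 in controls and 1.49, 1.43 and 1.46 after cGAMP (0.51).

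All 8 ratios were higher in every wild type cGAMP library than in every wild type control, with shifts from 0.38 (Nhp2 over Nop10) to 0.89. Since the pairs were picked for their unequal changes, no test is given. In Tmem173-/- cells the shifts ran from -0.31 (Gar1 over Nop10) to 0.06 (Imp4 over Imp3). Gar1 over Nop10 also had groups without overlap there, in the opposite direction. It was 1.405, 1.444 and 1.814 in Tmem173-/- controls and 1.292, 1.243 and 1.21 after cGAMP. The groups of the other ratios overlapped in Tmem173-/- cells.

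**Figure D4:**
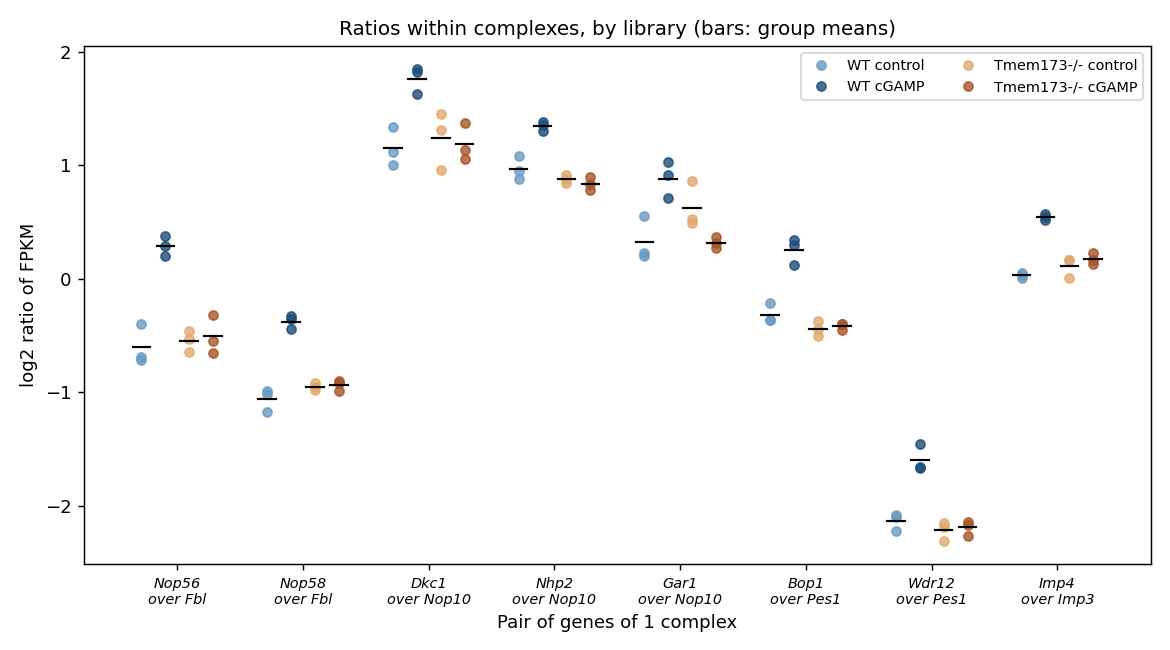
Log2 ratio of FPKM for 8 pairs of genes that share a complex, with 1 point per library and a bar at the mean of each group. In each pair the 3 wild type cGAMP points lie above the 3 wild type control points, by 0.38 to 0.89 on average.

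In Tmem173-/- cells none of the 42 genes was called after cGAMP by edgeR, nor was any of the 14473 tested genes (percent called 0). At an unadjusted p under 0.05, edgeR gave 0 of the 42 in either direction, with 132 genes higher and 71 lower among all tested. DESeq2, limma-voom and limma-trend also called 0 of all tested genes. The fitted log2 changes of the 42 ran from -0.22 (Gar1) to 0.06 (Nop10), with a median of -0.01, and the groups overlapped for all 42. Among all tested genes the groups did not overlap for 3.2% (higher) and 3.44% (lower). For 39 genes the upper 95% bound was at most 0.52. For Rrp9, Rrp12 and Rrp1b the intervals were wide, reaching from -2.09 to 1.90, with SEs of 0.60 to 0.87 that fell to 0.093 to 0.11 without the low wild type library. For 37 of the 42 genes the interval in Tmem173-/- cells excluded the gene's own wild type change.

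The difference between the 2 responses was itself tested. It was positive and past the threshold for 32 of 42 genes and negative and past it for 0. Of all tested genes, 14.1% were positive and past the threshold and 17.5% negative and past it. Its median over the 42 was 0.75. The difference was 1.32 for Gnl3 (SE 0.15, adjusted p = 9.41e-06), 1.13 for Nop56 (SE 0.15, adjusted p = 3.63e-05) and 0.94 for Noc3l (SE 0.13, adjusted p = 4.63e-05). Of the 35 genes that rose in wild type, Npm1 (0.47, adjusted p = 0.080), Imp4 (0.32, adjusted p = 0.063) and Nhp2 (0.42, adjusted p = 0.18) did not pass this test. Without wild type control replicate 2, 33 genes passed, Rrp9 (1.01), Rrp12 (0.75) and Rrp1b (1.16) among them. Ddx10 and Nop16 then did not.

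Between untreated genotypes 0 of 42 genes were called, and 0 of all tested genes in edgeR (percent called 0). At an unadjusted p under 0.05 edgeR gave 0 higher and 5 lower of the 42, and 286 higher and 635 lower of all. DESeq2 called 0 of the 42 and 4 of all tested genes, all higher. The fitted values leaned to one side, since 35 of 42 were lower in Tmem173-/- controls, with a median log2 difference of -0.11 against -0.01 over all genes. Without wild type control replicate 2 all 42 were lower, with a median of -0.22 and still 0 called. The groups did not overlap for 2 of the 42, Imp3 and Gnl3, both lower in Tmem173-/- controls, against 4.08% of all tested genes. Nhp2 had the lowest value with all libraries, at 189, 153 and 230 CPM in wild type and 183, 132 and 123 CPM in Tmem173-/- controls (-0.38, adjusted p = 0.73). The wild type and Tmem173-/- cells were separate mice, and what else differed between them is not given in the sources used here.

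Under cGAMP, 36 of 42 genes were lower in Tmem173-/- than in wild type cells and 0 were higher, where 23.5% of all tested genes were lower and 24.9% higher. The median log2 difference was -0.85. For 41 of the 42, all but Pes1, every Tmem173-/- library lay below every wild type library, against 29.2% of all tested genes. Gnl3 was at 121, 91.3 and 120 CPM in Tmem173-/- cGAMP libraries against 324, 344 and 319 CPM in wild type (-1.57, adjusted p = 1.14e-08). Fbl, which did not pass in the wild type response, did pass here, at 342, 278 and 261 CPM against 457, 410 and 426 CPM (-0.55, adjusted p = 0.0049). The 6 genes not called were Nop10, Imp3, Pes1, Rrp9, Rrp12 and Rrp1b, and the last 3 passed without wild type control replicate 2. The wild type cGAMP libraries also enter the wild type response, so these values are not independent of it.

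The 42 genes are part of a longer pathway, for which 121 further genes were listed and all 121 tested. In wild type, 90 of the 121 rose, 5 fell and 26 did not pass, with a median of 0.54, where 22.4% of all tested genes were higher and 25.4% lower. Without wild type control replicate 2, 82 rose and 5 fell, with a median of 0.42. Of the calls, 12 were lost without that library and 4 gained, the latter Rrp7a, Rrp8, Rrp15 and Dis3. Genes of large subunit assembly rose in 33 of 42 cases, of the small subunit processome in 29 of 37, of late small subunit assembly in 6 of 7, of snoRNP assembly in 6 of 9, of the nuclear RNA exosome in 9 of 13 and of RNA polymerase I in 7 of 13. The largest rises were those of Ppan (1.32), a large subunit factor, of Mdn1 (1.29), the giant ATPase that removes factors from the large subunit precursor, and of Taf1a (1.29), a subunit of the promoter factor SL1 of RNA polymerase I. Ppan was at 119, 108 and 107 CPM in controls and at 280, 273 and 279 CPM after cGAMP, well separated.

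Nsa2 (-0.65) and Nop53 (-0.62), both large subunit factors, and the RNA polymerase I subunit Znrd1 (-0.41) fell the most. Nop53 was at 451, 481 and 535 CPM in untreated wild type cells and at 322, 313 and 318 CPM after cGAMP. The groups of Nop53 did not overlap. In Tmem173-/- cells 0 of the 121 were called, as were 0 of all tested genes. The difference of the responses was called higher for 70 and lower for 4, against 14.1% and 17.5% of all tested genes. Without wild type control replicate 2 it was called higher for 65 and lower for 4, against 12.9% and 16.2% of all.

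Myc, a known activator of this gene set, was at 192, 154 and 164 CPM in untreated wild type cells and at 393, 323 and 360 CPM after cGAMP (log2 change 1.08, SE 0.11, adjusted p = 5.92e-07). It was at 162, 142 and 155 CPM in Tmem173-/- cGAMP libraries (-0.01), and the difference of the responses was 1.09 (adjusted p = 5.02e-05). Of the genes with a promoter window, 7 of the 8 with CACGTG rose (all but Pes1) and 25 of the 29 without it rose. These were 7 of 8 and 26 of 29 without wild type control replicate 2.

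Transcripts for the proteins of the ribosome itself were compared in the same fit. Of 85 tested genes for cytosolic ribosomal proteins, 66 fell in wild type after cGAMP, 3 rose and 16 did not pass, with a median of -0.52, against 25.4% lower and 22.4% higher over all tested genes. Of 77 tested genes for mitochondrial ribosomal proteins, 18 rose and 4 fell, with a median of 0.15, a share of rises near that of all tested genes. On leaving out wild type control replicate 2, 10 of the 77 rose and 4 fell. Of the 85 cytosolic genes, 69 then fell and 2 rose, with a median of -0.60. Rpl12 is one of the genes that were low in that library. Over all tested genes 20.1% were then higher and 23% lower. As shares of all counts, the 42 biogenesis genes took 0.955%, 0.746% and 0.899% in wild type controls and 1.55%, 1.37% and 1.51% after cGAMP. The cytosolic ribosomal proteins took 12.1%, 13.0% and 15.1% in controls and 9.04%, 10.8% and 9.36% after cGAMP. Neither pair of groups overlapped. In the 6 Tmem173-/- libraries the shares were 0.751% to 0.902% and 9.98% to 13.5%.

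**Figure D5:**
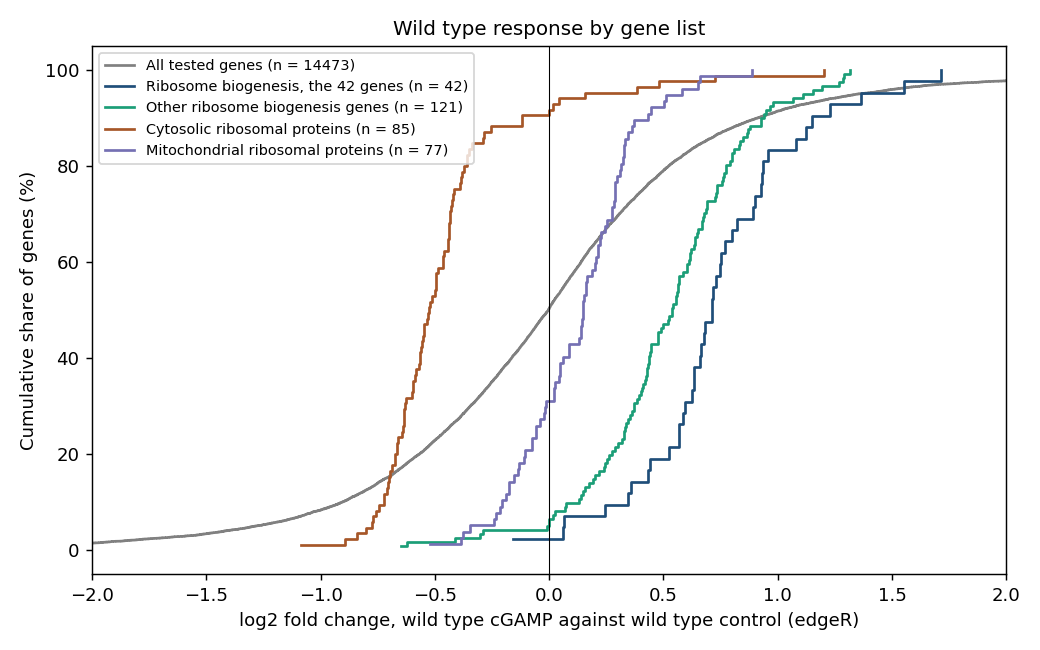
Cumulative share of genes by log2 fold change of wild type cGAMP against wild type control, for the 42 genes, the 121 further biogenesis genes, cytosolic and mitochondrial ribosomal proteins, and all 14473 tested genes (axis limited to -2 to 2). The curve of the 42 genes lies to the right of 0, with a median of 0.71, and that of the cytosolic ribosomal proteins to the left, with a median of -0.52.

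Some of these genes overlap a neighbour on the other strand, and the strand setting of the counting is not given in the sources used here. Of the 42, 9 overlapped an opposite-strand gene that had at least 10% of their own counts. Gnl3 (chr14:31012433-31019152) overlaps Pbrm1, which had 79.6% as many counts and a wild type change of 0.14 (adjusted p = 0.21). Nop56 (chr2:130274430-130279313) overlaps Idh3b, with 46.7% as many counts and a change of -0.06 (adjusted p = 0.58). The neighbours of Dkc1 (Mpp1, -0.87), Nhp2 (Rmnd5b, -0.67) and Bop1 (Mroh1, -0.52) fell in the libraries in which these 3 genes rose. Those of Bysl, Rrp9, Heatr1 and Wdr12 did not pass the threshold. Coordinates are those deposited with the counts, for mouse GRCm38.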

How the data were processed

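The authors deposited whole-number read counts per gene and FPKM values for 12 libraries. Per the submitters' processing notes, the tools were fastp, STAR and featureCounts, with the builds GRCm38 and mm10. Versions, annotation and strand setting are not given in the sources used here. The deposited counts and FPKM values held the same assignments, since their ratio per gene, scaled by library total, was constant within 2.9e-14.

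Counts were tested in R 4.3.3 with edgeR 4.0.16 (filterByExpr, TMM scaling, robust quasi-likelihood F tests, two-sided, 4 group means). This left 14473 genes, with Benjamini-Hochberg adjustment over all of them and a threshold of 0.05. Library totals were 26490593 to 31417833 counts. CPM of single genes use these totals times the TMM factors (0.914 to 1.04), and summed marker CPM and shares of counts use the plain totals. The SE is the log2 fold change over the square root of F. The 5 contrasts were the cGAMP response in each genotype, their difference, and the genotypes within each treatment. The scripts were tested on simulated data. Alternatives were median-of-ratios scaling, library totals, no filter, DESeq2 1.42.0, limma 3.58.1 (voom on counts, trend on log2(FPKM + 1) and log2(FPKM + 0.1)), only the 2 groups compared, a replicate block, and leaving out libraries.

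The 42 genes and all lists were chosen with earlier results of these data known, so they are no independent evidence. Values in every library are given, per role, for the 2 genes with the largest and the 1 with the smallest absolute wild type change and for genes not past the threshold. Other pathway genes named are the 3 largest rises and falls, and Myc. The counts of other lists without wild type control replicate 2, Nop2, Nop56 and Noc3l in the plot, Nhp2 between untreated genotypes, and the ratios were chosen after values were seen. RefSeq promoter windows were matched by symbol. Rrp12, Npm1, Rrs1, Bop1 and Fbl had none in the table used. Some listed marker values are not reported here.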

Additional observations from a re-analysis of the deposited data

Results flagged for a closer look

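The cGAMP response differed between wild type and Tmem173-/- cells for 32 of the 42 genes, by edgeR's test of the difference of the log2 fold changes (wild type minus Tmem173-/-, adjusted p under the threshold, 3 libraries per group). In all 32 the wild type response was the larger. Among the small nucleolar RNA particles the differences were 1.13 for Nop56, 0.94 for Nop58, 0.65 for Dkc1 and 0.85 for Gar1. For RNA polymerase I they were 0.62 for Polr1a and 0.90 for Polr1b. Of the nucleolar phosphoproteins, Ncl differed by 0.72 and Nolc1 by 1.11. In the small subunit processome the differences were 0.97 for Wdr43, 0.44 for Utp15, 0.77 for Utp20, 0.71 for Heatr1, 0.75 for Nop14, 0.78 for Noc4l and 0.39 for Ddx10. Late small subunit factors differed by 0.84 (Bysl), 0.77 (Ltv1), 0.67 (Nob1) and 0.84 (Tsr1), and PeBoW genes by 0.62 (Bop1) and 0.58 (Wdr12). Among large subunit factors the differences were 1.11 for Nop2, 0.59 for Nop16, 0.75 for Rrs1, 0.94 for Noc2l, 0.94 for Noc3l, 0.69 for Ddx18, 0.64 for Ddx27, 1.32 for Gnl3, 0.75 for Grwd1 and 0.88 for Mrto4. Ddx21 differed by 0.67. The value of Nop2 rests partly on its low count in wild type control replicate 2 and was 0.82 without that library. Besides Nop2, 3 of these calls were lost on leaving out single libraries. The call of Polr1a was lost without wild type control replicate 3, wild type cGAMP replicate 1 or 3, or Tmem173-/- cGAMP replicate 3. That of Nop16 was lost without wild type control replicate 2, wild type cGAMP replicate 2, or Tmem173-/- cGAMP replicate 2 or 3. Ddx10 lost its call without wild type control replicate 1 or 2, wild type cGAMP replicate 1 or 3, Tmem173-/- control replicate 1, or Tmem173-/- cGAMP replicate 2 or 3.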

How the results depend on the processing

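In wild type after cGAMP, the number of the 42 genes called higher was 34 to 37 when 1 library was left out and 32 to 38 under the other alternatives, against 35, with 0 lower throughout. The difference of the responses was called higher for 28 to 33 genes with 1 library left out and for 30 to 37 otherwise, against 32. Tmem173-/- cells gave 0 called genes of the 42 after cGAMP under every alternative. The call of Nop2 in the difference of the responses was lost on leaving out any 1 of 5 libraries, namely wild type cGAMP replicate 1, Tmem173-/- control replicates 1 and 3 and Tmem173-/- cGAMP replicates 2 and 3 (adjusted p 0.052 to 0.071). Without both wild type libraries numbered 1, Nhp2, Imp4 and Ddx10 did not pass in wild type (adjusted p 0.12, 0.056 and 0.051). Of the 121 further pathway genes, 5 fell in wild type, 3 with library totals, 3 with limma-trend on log2(FPKM + 1), 3 on log2(FPKM + 0.1), and 3 to 5 with 1 library left out. Between untreated genotypes, the fit with no filter called 2 of the 42 higher (Rrp12 0.38 and Rrp1b 0.41) and 1 lower (Nhp2 -0.38). That fit estimated no variation of the spread between genes, whereas the fit with the filter had a median of 8.06 prior degrees of freedom. Small changes turned in sign. In wild type, Nop10 ran from -0.0459 to 0.2323 with 1 library left out (-0.0015 and -0.0459 without wild type control replicate 1 and 2), and Pes1 from -0.0060 (without wild type control replicate 2) to 0.1304. The difference of the responses for Nop10 was -0.0001, and 0.0152 with median-of-ratios scaling, 0.0810 with library totals, 0.0149 in DESeq2, 0.0004 in limma-voom, 0.0764 and 0.0768 in limma-trend on log2(FPKM + 1) and log2(FPKM + 0.1), and -0.2105 to 0.1675 with 1 library left out. Libraries with the same number were not shown to be pairs. The correlation of their deviations from the group means was 0.3, 0.218 and 0.083 in wild type and 0.288, 0.096 and 0.17 in Tmem173-/-, although each library correlated best with its own number. With the number as a replicate block, 36 of the 42 genes were called higher in wild type and 34 in the difference. Fbl (adjusted p = 0.017) then passed in wild type, and Npm1 (0.011) and Imp4 (0.022) in the difference. Rrp1b passed in wild type without control replicate 1 (0.045).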

Other observations

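Partners of MYC were listed apart from the assembly factors. Of 10 tested genes for MYC and its partners, 5 rose, 3 fell and 2 did not pass in wild type cells after cGAMP. Over all tested genes 22.4% were higher and 25.4% lower. Mxd4, a MAX partner that opposes MYC at E-boxes, fell from 149 ± 10.9 CPM to 28.1 ± 1.75 CPM (SD, n = 3 libraries), a log2 change of -2.41 (edgeR, adjusted p = 2.85e-11). In Tmem173-/- cells Mxd4 was at 161 ± 8.26 CPM in controls and 165 ± 5.43 CPM after cGAMP (0.03), and the difference of the responses was -2.44 (adjusted p = 2.27e-09). Mycl rose from 0.189 ± 0.114 to 2.18 ± 1.14 CPM, a low level in both groups (3.50, SE 0.68, adjusted p = 4.98e-04). Both were named after their values were seen.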
